A study of Rattus norvegicus with 4 samples.

Results

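The transmitter-gated ion channels described here were 53 probe sets of 38 rat genes, taken by gene symbol from the 1263 probe sets, naming 720 genes, that were no controls on 4 oligonucleotide arrays. A probe set was a member when it named a single gene whose symbol began with Chrn (nicotinic acetylcholine receptor subunits), Gabra, Gabrb, Gabrg, Gabrd or Gabrr (GABA-A receptor subunits), Glra or Glrb (glycine receptor subunits), Htr3 (serotonin-gated channel subunits) or P2rx (ATP-gated P2X subunits). This gave 18 nicotinic probe sets of 15 genes, 17 GABA-A probe sets of 13 genes, 5 glycine receptor probe sets of 3 genes, 3 probe sets of Htr3a and 10 P2X probe sets of 6 genes. No probe set naming Glrb alone was found, and that subunit is not analysed here. The 118 probe sets with no gene symbol and the 8 with several were left out, so any subunit read only by these is not described. The arrays were made from total RNA of Rattus norvegicus, with the tissue given as brain, adrenal medulla. The samples were undigested or digested and were taken at day 1 or day 7 of a time course, which makes 4 groups of 1 array each. The labels do not say what was digested, nor give a strain, an age, a culture or an aim of the study.

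Nicotinic, GABA-A, glycine and serotonin-gated receptors belong to one superfamily, the Cys-loop receptors, in which several subunits surround a central pore. Nicotinic and serotonin-gated channels pass cations and excite the cell, whereas GABA-A and glycine receptors pass chloride. P2X receptors are an unrelated family of cation channels opened by extracellular ATP. In the adrenal medulla, acetylcholine from the splanchnic nerve opens nicotinic receptors of chromaffin cells, which then release catecholamines.

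Scaled signals are given below in a fixed order, the undigested and digested day 1 arrays followed by the undigested and digested day 7 arrays. They are the deposited intensities multiplied by 0.925, 1.01, 1.09 and 0.984, which brings the arrays to a common median. The 20th percentile of all scaled values, 51.8, served as a floor below which readings have no order. No replicate spread was measured, so differences between arrays are given as sizes and were counted from 2-fold. The beta-actin control compares probes at the 3′ and 5′ ends of the transcript. Their signal ratio stood at 2.66 on the undigested day 7 array and between 1.35 and 1.48 on the others. The same ratio for GAPDH was 1.18 on that array and 1.01 to 1.1 on the others. For hexokinase it was 1.4, and 1.05 to 1.31 on the others, so only beta-actin set that array clearly apart. Hybridisation controls, 9 probe sets, stood below their level on the other arrays in the digested day 7 hybridisation, by a median log2 of -1.35. Of the 9 listed chromaffin cell markers 5 had probe sets. Of these 5 genes 4 (Th, Dbh, Ddc and Penk) were at least 2 times the array median on every array by at least 1 probe set. Both probe sets of Slc18a2, a vesicular monoamine transporter gene, stayed below the median at 0.119 to 0.747 times. The listed Slc18a1, also such a transporter gene, had no single-gene probe set and was not checked. Of the 12 listed neuronal markers 9 had probe sets, and 8 of these genes stood at least 2 times the median on every array. None of the listed adrenal cortex, endothelial or skeletal muscle markers was among the genes named by a single-gene probe set, so these cell types were not checked. Of the other lists, 1 of 4 astrocyte genes with probe sets stood that high (Glul, but not Slc1a2, Slc1a3 or S100b), 2 of 4 myelin genes (Cnp and Mag, but not Mbp or Mog) and 1 of 2 Schwann cell genes (Ngfr, but not Sox10). The single microglial and fibroblast genes read, Itgam and Vim, stayed below the median on all arrays.

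A limit of 2 times the array median was used to divide the channel genes. It set a small group, called strong in signal here, apart from a larger group of lower signal, most of it near or below the array median. Transcripts of the ATP-gated subunits P2rx2 and P2rx4, the nicotinic subunits Chrna3, Chrna5, Chrnb1, Chrnb2 and Chrng and the serotonin-gated subunit Htr3a were read at 2 or more times the array median on all 4 arrays. Htr3a stood that high by only 1 of its 3 probe sets, U01227_s_at. The group held 12 of the 53 members (22.6%), against 34.0% of all 1263 probe sets. No GABA-A or glycine receptor probe set was in this group, with 0 of 17 and 0 of 5. Of the members, 18 (34.0%) exceeded the median on all 4 arrays, 11 on some of them and 24 on none, and 42.0% of all probe sets exceeded it on all 4. At least 1 reading at the floor was found for 21 members (39.6%), against 34.9% of all probe sets. Just inside the limit lay Chrng, with a lowest ratio of 2.96, and just outside it Chrna7, with a lowest ratio of 1.98 by its probe set L31619_at, and Chrnb4, with 1.93 by U42976_at. Probe sets bind their targets with different efficiency, so a ratio to the median places a reading on its array and does not rank the genes by abundance.

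**Figure D1:**
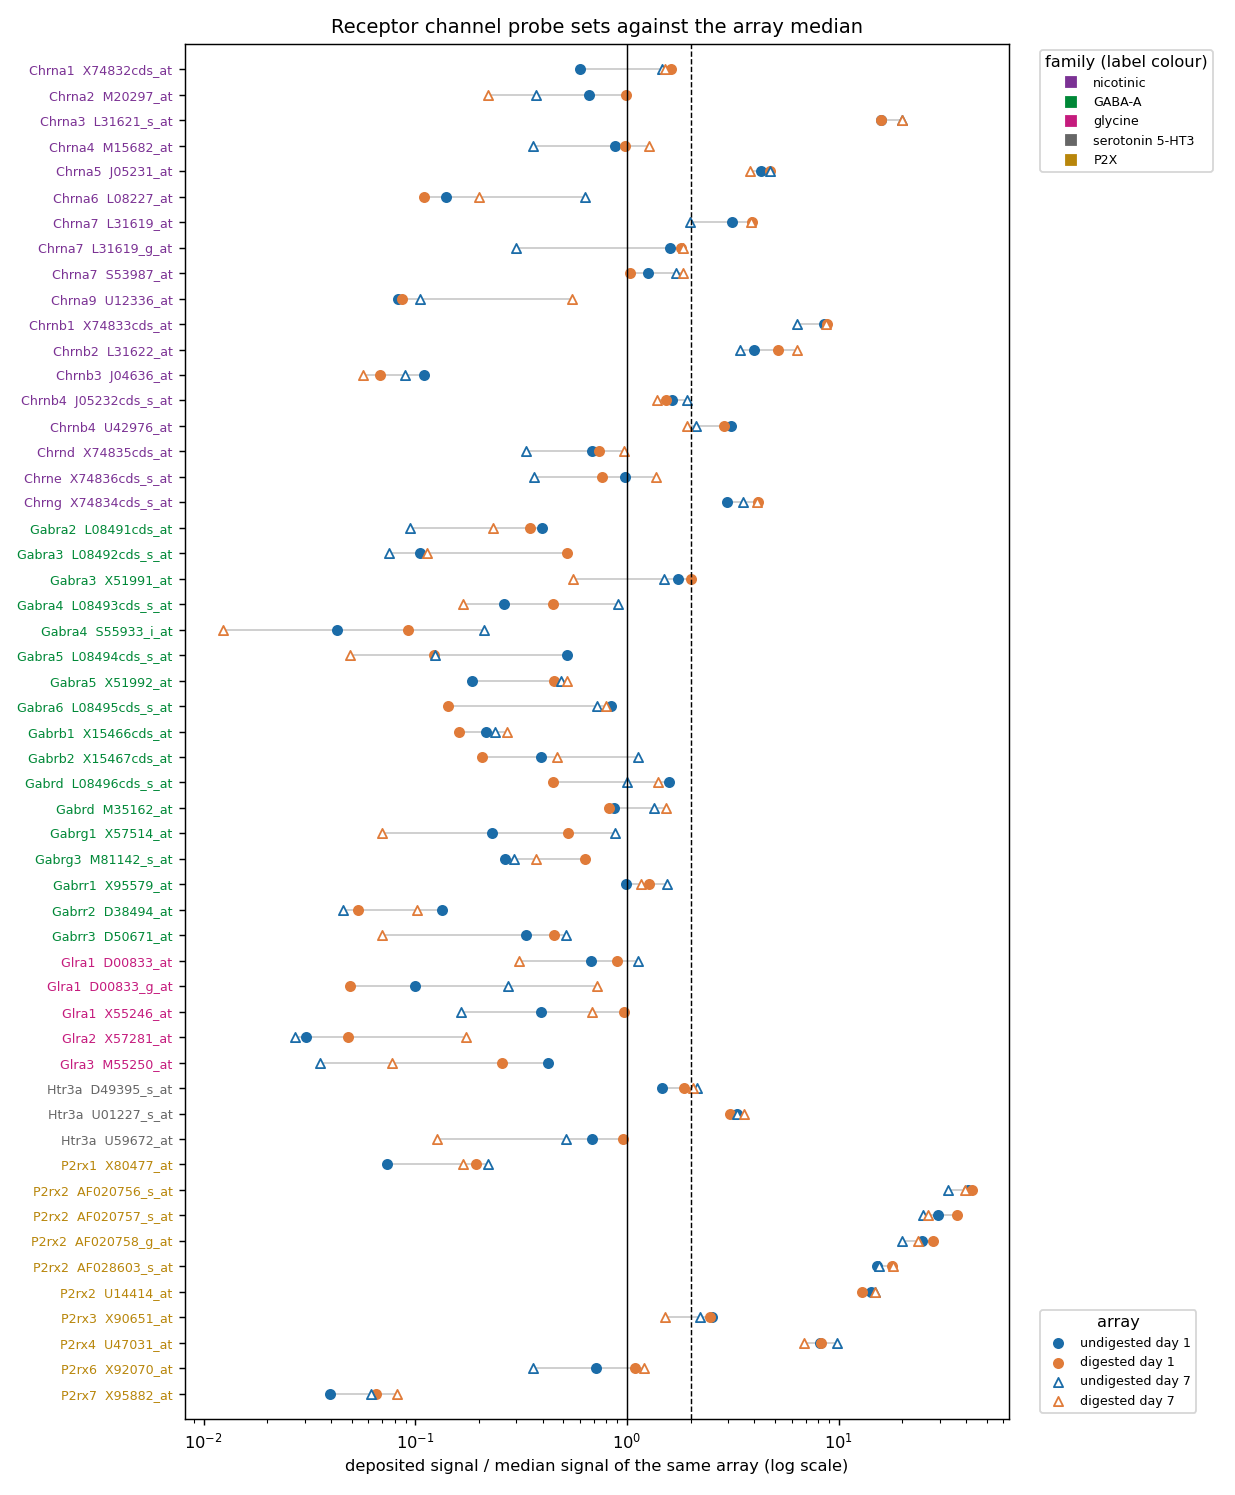
Deposited signal of each of the 53 probe sets divided by the median of the same array (log axis), 1 symbol per array and grouped by receptor family; the solid line is the median and the dashed line 2 times the median. The 5 P2rx2 probe sets lie between 12.9 and 42.5 times the median, and no GABA-A or glycine receptor probe set is right of the dashed line on every array.

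Among neuronal nicotinic subunits, Chrna3, the ligand-binding alpha subunit of ganglionic and chromaffin cell receptors, had scaled signals of 4166, 4151, 5268 and 5250.1. Both day 7 arrays read it slightly higher than both day 1 arrays, by log2 0.34 in undigested and 0.34 in digested samples, and the digested and undigested arrays of each day were nearly equal. The accessory alpha subunit gene Chrna5 was read at 1131, 1249, 1245 and 1000.3. Its lowest and highest arrays differed 1.25-fold. Chrnb4, the beta subunit that pairs with the alpha subunit of Chrna3 in autonomic neurons, was read by a pair of probe sets. U42976_at gave 816, 754, 554 and 507, and J05232cds_s_at gave 431, 400.5, 506 and 364. The first read Chrnb4 lower at day 7 in both states (log2 -0.56 and -0.57), while the other gave log2 0.23 and -0.14, so the probe sets differ on the day and neither reached 2-fold.

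Chrna5, Chrna3 and Chrnb4 lie side by side in the rat genome, with no other protein-coding gene between neighbours in RefSeq's GRCr8 table, and all of their probe sets exceeded the median on all 4 arrays. The 250 bases before each gene's start are shown because all 3 neighbours were above the median throughout, as were 42.0% of all probe sets. They are RefSeq sequences of build GRCr8, at chr8:64265629-64265878 on the plus strand for Chrna5, chr8:64311252-64311501 on the minus strand for Chrna3 and chr8:64333110-64333359 on the minus strand for Chrnb4, written 5′ to 3′ on the gene's strand. Capitals mark the GC box, GGGCGG or its reverse complement CCGCCC, the core of sites bound by Sp1-type factors.
Chrna5: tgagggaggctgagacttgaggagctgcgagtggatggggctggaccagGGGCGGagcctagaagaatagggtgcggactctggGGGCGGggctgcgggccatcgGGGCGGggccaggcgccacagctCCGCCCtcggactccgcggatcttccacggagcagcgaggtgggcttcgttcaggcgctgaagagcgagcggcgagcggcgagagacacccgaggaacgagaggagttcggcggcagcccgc
Chrna3: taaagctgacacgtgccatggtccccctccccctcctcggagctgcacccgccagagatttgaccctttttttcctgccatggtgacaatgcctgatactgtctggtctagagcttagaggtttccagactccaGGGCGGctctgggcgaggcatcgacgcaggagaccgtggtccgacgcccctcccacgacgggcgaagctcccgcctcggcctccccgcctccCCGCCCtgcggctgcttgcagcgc
Chrnb4: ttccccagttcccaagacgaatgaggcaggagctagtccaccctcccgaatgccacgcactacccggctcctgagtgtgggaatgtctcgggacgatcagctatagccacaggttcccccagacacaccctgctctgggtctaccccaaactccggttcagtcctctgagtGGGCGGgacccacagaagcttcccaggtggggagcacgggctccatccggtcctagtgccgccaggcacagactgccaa
The window held 4 GC boxes before Chrna5, 2 before Chrna3 and 1 before Chrnb4. Promoters were found for 31 of the 38 member genes, 32 windows in all, of which 15 (46.9%) held a GC box on either strand, against 30.5% of the 33469 windows of that table. Among the genes with strong signal 4 of 6 windows held it, and among the other member genes 11 of 26 (42.3%). The median share of G and C was 61.8% in the former, 55.6% in the latter and 51.2% over all windows, and this shared base composition was not separated from the motif counts. The TATA box TATAAA, on either strand, was in 4 of the 32 windows (12.5%, and 12.9% of all), and the cAMP response element TGACGTCA in 0 of 32 (1.59% of all). A match is a description of these letters, not a site.

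Chrnb2, the main beta subunit of brain nicotinic receptors, was read at 1045, 1354, 901 and 1672. It was higher in the digested sample at both days, by log2 0.37 and 0.89, short of 2-fold. Chrna4, its usual alpha partner in the brain, was read at 230.1, 258, 95.0 and 333, below the median on 3 arrays and 1.27 times the median on the digested day 7 array. Chrna2, another brain alpha subunit, was read at 174, 261, 97.4 and 57.9, on no array above the median. The alpha and beta subunit genes Chrna6 and Chrnb3, neighbours in the genome that are known from midbrain dopamine neurons, reached at most 0.631 and 0.110 times the median, and Chrnb3 was at the floor on all 4 arrays. Chrna9, a subunit known from inner ear hair cells, was at the floor on 3 arrays and 0.551 times the median on the digested day 7 array.

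Chrna7, whose product forms calcium-permeable receptors of identical subunits, was read by 3 probe sets that disagreed on 1 array. L31619_g_at gave 418, 475, 79.1 and 482, so that the undigested day 7 reading stood alone below the median. L31619_at, designed on the same sequence entry, gave 828, 1029.7, 519.7 and 1018, also lowest on that array. S53987_at gave 332, 272, 447 and 484 and did not read the undigested day 7 array low. Digested minus undigested at day 7 was log2 2.61, 0.97 and 0.11 by the 3 probe sets in this order, and day 7 minus day 1 in undigested samples was -2.40, -0.67 and 0.43. The undigested day 7 array is the one with a beta-actin ratio of 2.66, and the part of that ratio in these readings was not tested.

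The subunits of the muscle-type nicotinic receptor were read unevenly. Chrnb1, its beta subunit, had signals of 2244, 2314, 1677 and 2302, and Chrng, the gamma subunit of the fetal muscle receptor, 777, 1099, 928 and 1077. Neither had a difference of 2-fold in any comparison. Chrnd, the delta subunit, whose gene neighbours Chrng in the genome, was read at 179.6, 194, 87.4 and 255, on no array above the median. Chrne, the epsilon subunit of the adult muscle receptor, was read at 257, 201, 96.1 and 362. Chrna1, the muscle alpha subunit, was read at 158, 426, 385 and 397. Its undigested day 1 reading stood apart below the other arrays, which lay between 385 and 426. The probe sets of Chrng and Chrne are of the kind marked _s_at, which can match more than 1 transcript. The only Chrna3 probe set, L31621_s_at, has the same mark, as do, among others, some of Chrnb4, Htr3a, P2rx2 and Gabrd.

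Htr3a, the gene of the serotonin-gated cation channel, was read evenly by its brighter probe set U01227_s_at, with signals of 869, 802, 869 and 943, a 1.18-fold range over the arrays. D49395_s_at gave 383, 489.5, 565 and 538. The remaining probe set, U59672_at, gave 179.6, 252, 136 and 33.3, on no array above the median and at the floor on the digested day 7 array. That array is the one with the low hybridisation controls, and the part of those in this reading was not tested.

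Of the ATP-gated channels, P2rx2 and P2rx4 stood far above the array median. P2rx3 stood at 1.52 to 2.52 times the median, and the other subunits near or below it. P2rx2, a P2X subunit of sensory and autonomic neurons and of chromaffin-derived cells, was read by 5 probe sets, of which AF020756_s_at gave 10684, 11165, 8680.5 and 10367. AF020757_s_at gave 7740.0, 9481, 6594 and 6979, and AF020758_g_at gave 6502, 7331, 5247 and 6239.7. AF028603_s_at gave 3983, 4692, 4066 and 4728, and U14414_at gave 3734, 3394, 3919.6 and 3899.7. All 5 stayed within a 1.15-fold to 1.44-fold range over the arrays, and their readings lay between the 83.3rd and the 92.8th percentile of each array. The first 3 were lowest on the undigested day 7 array, whereas the other 2 were not. These probe sets target one gene and its splice forms and are not independent readings of the module.

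P2rx4, a widely expressed P2X subunit, was read at 2140.2, 2172, 2589.7 and 1802. Its day 7 arrays differed most, with the digested array lower by log2 -0.52. P2rx3, known from pain-sensing neurons, was read at 663, 648, 582 and 398, lowest on the digested day 7 array and 1.52 to 2.52 times the median. P2rx6 was read at 187, 288, 94.4 and 318, lowest on the undigested day 7 array. P2rx1, a subunit of smooth muscle and platelets, had 3 of its 4 readings at the floor. P2rx7, a subunit known from macrophages and microglia, had all 4 readings at the floor, from 10.4 to 21.5. P2rx7 and P2rx4 are neighbours in the genome, read at 0.0395 to 0.0819 and at 6.86 to 9.85 times the median.

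The promoters of this pair are shown because 1 neighbour was well above the median and the other at the floor on all 4 arrays. They are RefSeq windows of 250 bases in build GRCr8, at chr12:39523090-39523339 for P2rx4 and chr12:39594923-39595172 for P2rx7, both on the minus strand, with GC boxes in capitals.
P2rx4: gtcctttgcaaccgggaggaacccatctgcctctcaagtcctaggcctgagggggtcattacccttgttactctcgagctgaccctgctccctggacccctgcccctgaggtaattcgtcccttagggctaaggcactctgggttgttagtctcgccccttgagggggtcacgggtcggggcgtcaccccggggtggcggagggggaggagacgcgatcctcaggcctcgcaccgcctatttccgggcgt
P2rx7: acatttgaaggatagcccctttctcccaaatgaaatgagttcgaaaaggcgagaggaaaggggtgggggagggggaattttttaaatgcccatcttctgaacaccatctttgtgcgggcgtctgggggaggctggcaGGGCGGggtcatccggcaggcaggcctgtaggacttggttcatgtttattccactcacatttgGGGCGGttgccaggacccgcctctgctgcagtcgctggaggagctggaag
The window before P2rx7 held 2 GC boxes and that before P2rx4 held 0. Of the 10 pairs of member genes with no protein-coding gene between them, the 4 pairs named above on chromosomes 8, 9 and 12 hold every member with strong signal that has a member neighbour. The chromosome 14 group of Gabra2, Gabra4, Gabrb1 and Gabrg1 was below the median on every array.

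The GABA-A receptor subunits with a named probe set were near or below the array median. Of their 17 probe sets 12 were above it on no array, and 11 had at least 1 reading at the floor. Gabra3, an alpha subunit, was read by X51991_at at 457, 529, 394 and 147, and the digested day 7 reading was the only one below the median. Its other probe set, L08492cds_s_at, gave 27.7, 137, 19.8 and 30.0, at the floor on 3 arrays. Gabrd, the delta subunit of receptors outside synapses, was read by L08496cds_s_at at 418, 117, 263 and 367 and by M35162_at at 228, 216, 352 and 403. The digested day 1 reading was the lowest by both, but stood apart only by the first. Both Gabrd probe sets read the digested day 7 sample above the digested day 1 sample, by log2 1.65 and 0.90. Gabrr1, a rho subunit known from retina, was read at 261, 335, 406 and 307.

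The other GABA-A probe sets were too dim to be followed across the arrays. Gabrb2, the beta subunit of the commonest brain receptor, was read at 103, 54.6, 296 and 122 and exceeded the median on the undigested day 7 array alone. Gabra6, a subunit of cerebellar granule cells, was read at 220.0, 37.5, 189.8 and 209. The highest ratio to the median was 0.398 for Gabra2, 0.908 for Gabra4, 0.523 for Gabra5, 0.270 for Gabrb1, 0.877 for Gabrg1, 0.632 for Gabrg3, 0.133 for Gabrr2 and 0.516 for Gabrr3. Where Gabra4, Gabra5 and Gabra3 had a pair of probe sets, at least 1 of each pair was at the floor on 3 arrays. Neither gamma subunit read here, Gabrg1 or Gabrg3, exceeded the median on any array.

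Glycine receptor subunits were also dim, with 4 of 5 probe sets above the median on no array. Glra1, the alpha subunit of spinal cord and brainstem, was read by 3 probe sets, and the 3 did not follow each other. D00833_at gave 178, 235, 295 and 81.6, and X55246_at gave 103, 254, 43.5 and 181. D00833_g_at was at the floor on both day 1 arrays and gave 72.4 and 189 at day 7. Only 1 of these 12 readings exceeded the median, that of D00833_at on the undigested day 7 array, at 1.12 times. Glra2, the alpha subunit of immature neurons, was at the floor on all 4 arrays, and Glra3 on both day 7 arrays.

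**Figure D2:**
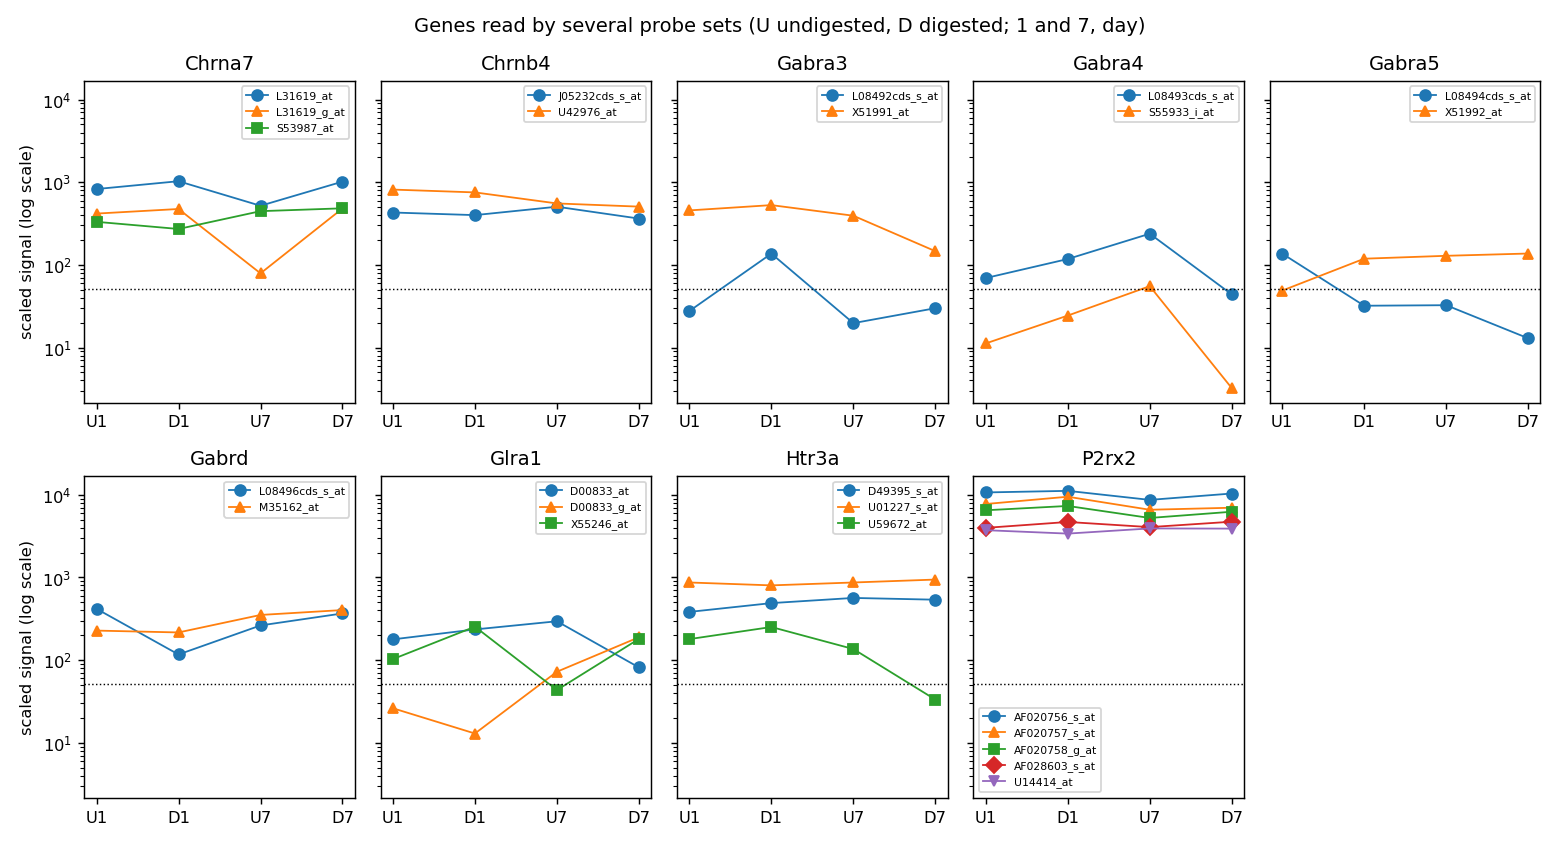
Scaled signal (log axis) on the 4 arrays for the 9 member genes read by several probe sets, with 1 line per probe set and readings below the floor of 51.8 (dotted) drawn as measured; the lines only join readings of a probe set. The 5 P2rx2 lines run nearly level, while 1 of the 3 Chrna7 lines dips to 79.1 on the undigested day 7 array and the 3 Glra1 lines cross.

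For the comparisons, a probe set was analysed when its mean log2 signal reached the median of all, a signal of 229. This left 24 members of 15 genes, 11 of them nicotinic, 4 GABA-A, 2 of Htr3a, 7 P2X and 0 glycine, among 632 probe sets in all. A difference with a reading at the floor was not counted.

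At day 1, the muscle alpha subunit Chrna1 was read 2.69-fold higher in the digested sample and the delta subunit Gabrd 3.57-fold lower by L08496cds_s_at. Its other probe set gave log2 -0.07. These were 1 of 24 members higher and 1 lower, against 2.06% higher and 1.42% lower of all analysed probe sets. The median log2 difference was 0.10 over the members and 0.12 over all. Apart from these, the analysed members ran from log2 -0.29 for Chrna7 by S53987_at to 0.50 for Chrng. At day 7, Chrna7 was read 6.10-fold higher in the digested sample by L31619_g_at, resting on the undigested reading of 79.1, and Gabra3 2.69-fold lower by X51991_at. The count was again 1 higher and 1 lower of 24, against 6.80% higher and 4.43% lower of all, with medians of 0.10 and -0.05. With the values as deposited 3 members were higher and 1 lower, since Chrna7 by L31619_at (log2 1.11) and Chrnb2 (log2 1.04) then passed.

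Between the days, the undigested samples differed 2-fold in Chrna1, 2.44-fold higher at day 7, and in Chrna7, 5.29-fold lower by L31619_g_at. This is 1 of 24 higher and 1 lower, against 7.28% and 5.85% of all analysed probe sets, with medians of 0.01 over the members and 0.17 over all. In the digested samples Gabrd was 3.14-fold higher at day 7 by L08496cds_s_at and Gabra3 3.61-fold lower by X51991_at, again 1 and 1 of 24, against 3.32% and 4.75% of all, with medians of -0.02 and 0.04. The undigested median over the members turned to -0.22 with the deposited scaling and to -0.20 under quantile normalisation, where the median over all was -0.07 and 0.0. Under the same settings the day 1 digestion median over the members was -0.02 and -0.04, and the digested day median 0.02 and -0.12.

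Markers of cell types also differed 2-fold between these arrays. Between the days in undigested samples, 3 of 5 analysed chromaffin probe sets were higher at day 7 (Dbh 2.44-fold, Ddc 3.45-fold and Penk 2.08-fold). Of the neuronal ones 2 of 16 were lower (Gap43, and Snap25 by 1 of its 4 probe sets). Other neuronal ones went up short of 2-fold, such as Syn1 (1024 to 1581) and Nefh by rc_AA818677_at (2622 to 4226). Of the astrocyte ones 2 of 4 were lower (2 of Glul). In digested samples 4 of 16 neuronal probe sets were lower at day 7 (Gap43, Nefm and 2 of Syn2) and 2 of 4 astrocyte ones (2 of Glul). For digestion at day 7, 1 chromaffin probe set was lower (Ddc) and 1 astrocyte one higher (Glul), and at day 1 none passed. Of all 632 analysed probe sets, 13.1% passed either way for the day in undigested samples and 8.07% in digested ones. For digestion it was 11.2% at day 7 and 3.48% at day 1. The summed signal of the 8 chromaffin probe sets was 280284, 303579, 385691 and 252166, of which Th alone gave 221633, 233350, 256725 and 163625. That of the 20 neuronal ones was 340230.0, 372942, 270908 and 241511. A large part of it came from Snap25, with 96677, 102213, 56595 and 61000 by AB003991_g_at alone. Syp, another bright neuronal gene, was read at 46543, 50771, 62107 and 49708, so the neuronal sum does not describe each gene of the list. The sum of the 13 astrocyte probe sets was 11581, 11985, 5707 and 6867. Most of the astrocyte sum came from Glul, with 6550, 6904, 2499 and 3356 by rc_AI232783_s_at alone. It is thus mainly a reading of 1 gene. Fewer cells of a type and less RNA per cell cannot be told apart here, and the part of these markers in the receptor readings was not tested.

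**Figure D3:**
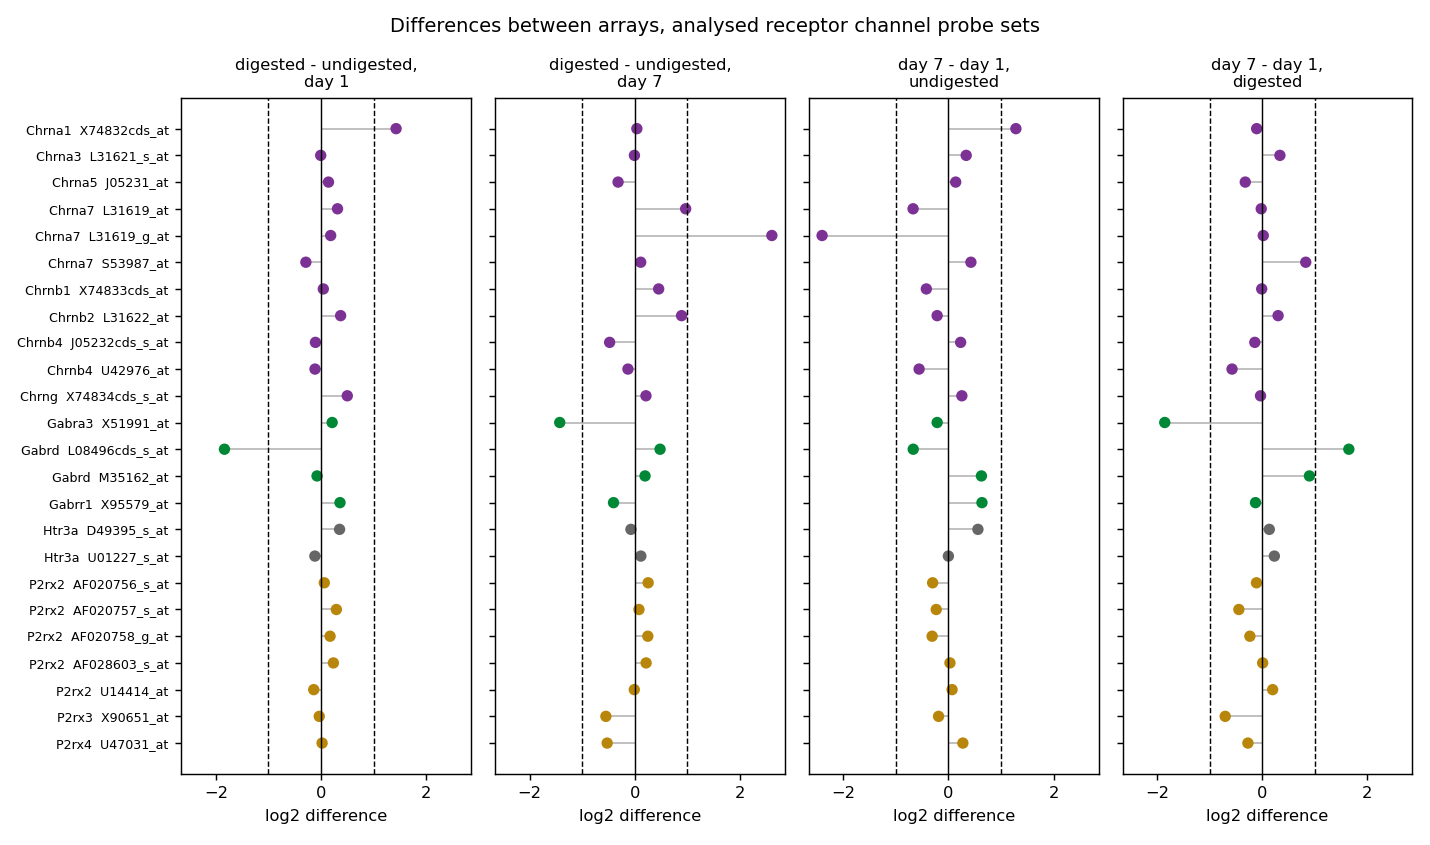
Log2 differences of the 24 analysed members in the 4 comparisons, coloured by family (nicotinic purple, GABA-A green, Htr3a grey, P2X ochre), with dashed lines at 2-fold. Each panel has 1 point beyond each dashed line, and those 8 points belong to 4 probe sets, of Chrna1, Chrna7, Gabra3 and Gabrd.

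All 8 differences of at least 2-fold came from those 4 probe sets, and each probe set passed in 2 comparisons that share an array. For Chrna1 the shared array was undigested day 1, for Chrna7 undigested day 7, for Gabra3 digested day 7 and for Gabrd digested day 1. Each thus had 1 low reading, of 158, 79.1, 147 and 117, while its other 3 readings were all at least 263. All 4 low readings lay under the 40th percentile of all values, 162. Over the 4 genes, 1 array of each group stood apart once, and no array did so for more than 1 of them.

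No member differed 2-fold in the same direction in both pairs of arrays, neither for digestion (0.158% of all analysed probe sets did) nor for the day (1.74%). In opposite directions 0 of 24 did. Of the 24 members, 10 were above 0 for digestion at both days (41.7%) and 5 below 0 at both (20.8%), against 30.9% and 15.2% of all 632. Several of these 10 read P2rx2 and others Chrna7, so this is not a share of genes. The day 1 digestion median over the members also changed sign with the scaling, as given above. For the day 7 were above 0 in both states (29.2%) and 8 below (33.3%), against 37.2% and 24.4% of all. An additive limma fit of digestion and day over the 632 probe sets, with 1 residual degree of freedom, called 0 members at an adjusted p under 0.05 for digestion (0.0% of all) and 0 for the day (0.158% of all). The lowest adjusted p of a member was 0.677 for digestion, that of Chrna7 by L31619_g_at. For the day it was 0.331, shared by Gabra3 by X51991_at and Gabrd by M35162_at, which is not the Gabrd probe set called at 2-fold. At an unadjusted p under 0.05 the fit had 1 member for digestion, against 42 of all 632, and 3 for the day, against 91.

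The bright members varied little between the arrays. Over the 12 with strong signal, the highest array was 1.15-fold to 1.86-fold above the lowest, with a median of 1.33, and 0 of 12 reached 2-fold. These 12 probe sets read 8 genes, since 5 of them read P2rx2 (1.15-fold to 1.44-fold), and are not 12 independent readings. The widest was Chrnb2. Of all 430 probe sets with signal that strong, 16.5% reached 2-fold and the median range was 1.5-fold. Over the other 12 analysed members the median range was 1.82-fold and 4 reached 2-fold (33.3%), against 55.0% of the 202 analysed probe sets of that level. For genes with several analysed probe sets, the log2 difference varied from 1 probe set to another of the same gene with a pooled SD of 0.469, 0.613, 0.783 and 0.345 over 5 member genes in the 4 comparisons, in the order in which they were given, and 0.319, 0.515, 0.523 and 0.413 over 125 genes in all.

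**Figure D4:**
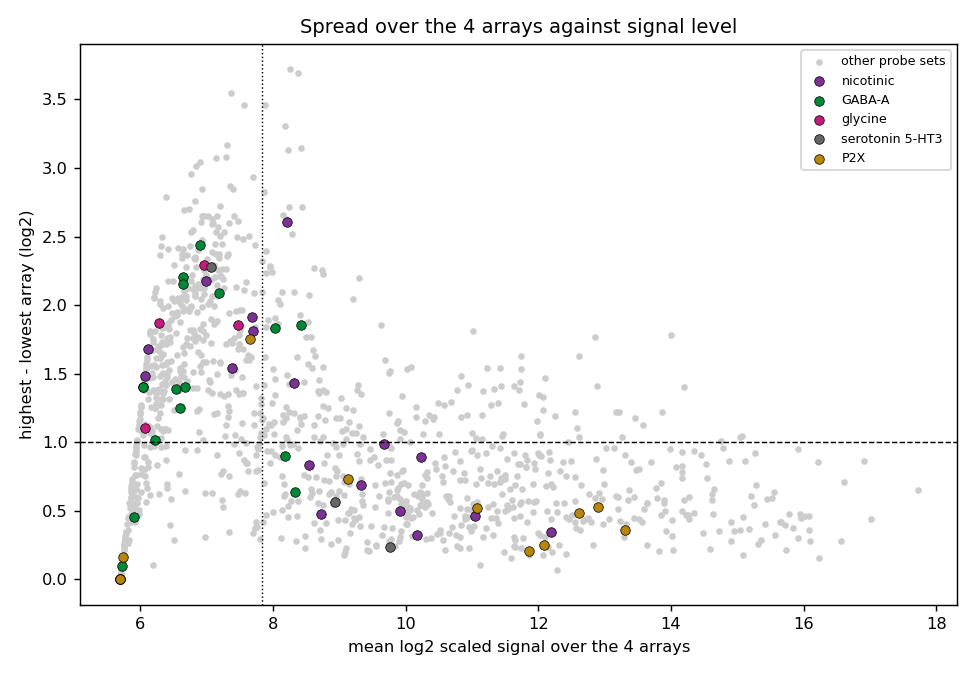
Highest minus lowest array (log2 of scaled signal, floored) against the mean log2 signal of each of the 1263 probe sets, members coloured by family and others grey; the dashed line is 2-fold and the dotted line the limit for analysis. The 12 members with strong signal lie below the dashed line, and the members left of the dotted line span from 0, where all readings are at the floor, to above 2.

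Several dim nicotinic and P2X members shared their lowest array. Chrna4, Chrnd, Chrne and P2rx6 were read at 0.333 to 0.366 times the median on the undigested day 7 array and at 0.683 to 1.38 times on the other arrays. They were singled out after their values were seen, and the part of that array's beta-actin ratio in them was not tested. Other dim members were highest on that same array. Among these were Chrna6 at 0.631 times the median, Gabrb2 at 1.12, Gabrg1 at 0.877 and Gabra4 by L08493cds_s_at at 0.908. Of the 32 members with no reading at the floor 11 were lowest on that array (34.4%), against 26.9% of all 822 such probe sets.

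Genes that make, move or otherwise sense the same transmitters had 16 analysed probe sets. For digestion at day 7, 2 of these 16 were at least 2-fold higher and 2 lower (25% together), where 11.2% of all 632 analysed probe sets passed. For digestion at day 1 it was 0 of 16, where 3.48% of all passed. For the day in undigested samples 1 was higher (6.25%, against 13.1% of all). For the day in digested samples 1 was higher and 1 lower (12.5%, against 8.07% of all). Of 15 listed genes of GABA and glycine handling 5 had probe sets, and 2 of their 6 probe sets were analysed. Slc32a1, the vesicular transporter of GABA and glycine, was read at 245, 197, 145 and 445, higher in the digested sample at day 7 (log2 1.62) and at day 7 in digested samples (log2 1.17), while its other probe set had 3 of 4 readings at the floor and the highest at 62.2. The metabotropic GABA receptor genes Gabbr1 and Gabbr2, unlike the GABA-A genes, had 4 of 8 probe sets at 2 or more times the median on all arrays. Gabbr1 passed 2-fold once, at day 7 by AB016160_g_at (log2 1.52, higher in the digested sample). Gabbr2 passed by AF074482_s_at, 4.55-fold lower in the digested sample at day 7 and 3.81-fold lower at day 7 in digested samples, from a reading of 75.1. Its brightest probe set, AF058795_at, gave 816, 829, 1223.9 and 1037.7, with no difference of 2-fold. By that probe set Gabbr2 was higher at day 7 in digested samples.

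Of 12 listed genes of acetylcholine handling and muscarinic receptors 7 had probe sets, and 5 of the 12 probe sets were analysed. Slc18a3, the vesicular acetylcholine transporter, was read by both of its probe sets at 10.8 to 25.7 times the median, with no difference of 2-fold. Chrm1, a muscarinic receptor gene, was read by AJ006522mRNA_at as lower in the digested sample at day 7 (log2 -1.45) and higher at day 7 in undigested samples (log2 1.02). Its other probe set, M16406cds_s_at, was too dim to be analysed. It gave 236, 42.6, 103.7 and 325, the opposite direction in both comparisons. Of 11 listed purine receptors coupled to G proteins 6 genes had probe sets, 2 of 8 probe sets were analysed, and neither passed 2-fold. One of them read Adora2a, an adenosine receptor gene, at 138 to 207 times the median. None of the listed chloride cotransporters was named by a single-gene probe set.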

How the data were processed

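Each of the 4 deposited arrays held a linear intensity for 1322 probe sets, 59 of them controls. The authors' steps in computing and scaling these intensities were not given in the sources used here. The mean trimmed by 2% at each end lay within 2515.1 to 2515.8 on all arrays. Gene names came from the platform's probe table, which gave 1 symbol to 1137 of 1263 probe sets, several to 8 and none to 118. All 38 member gene identifiers were in RefSeq's table of assembly GRCr8, which changed 0 symbols.

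Intensities were scaled to a common median, floored at the 20th percentile and taken to log2. Members and lists were chosen with earlier results of these data known. Every member gene is named; signals on all arrays are given for probe sets at 2 or more times the array median on all arrays, for analysed ones with a 2-fold difference, for further probe sets of those genes, and for Chrna3, Chrna5, Chrna7, Chrnb2 and Chrnb4, and were added for other members after their values were seen, as were the ratios of Slc18a3 and Adora2a. Genes of related lists are named where an analysed probe set passed 2-fold. Other scalings, floors, filters, thresholds and 1 value per gene were tried. With 1 array per group their number limits the precision, and no test was possible beyond an additive fit with limma 3.58.1 (R 4.3.3), adjusted by Benjamini-Hochberg. Its single residual degree of freedom holds sample spread and any interaction together. Scripts ran in Python 3.11.15 with pandas 2.3.3 and numpy 2.4.6, figures in matplotlib 3.10.9, and the steps were tested on simulated data.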

Additional observations from a re-analysis of the deposited data

How the results depend on the processing

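Of the 53 members, 12 stood at 2 or more times the array median on all 4 arrays, 15 at 1.5 times, 8 at 4 times, 15 on at least 3 arrays and 12 after quantile normalisation. With 1 value per gene there were 7 genes, with the 5 P2rx2 probe sets counted once and Htr3a no longer among them. The 2 members past 2-fold in each comparison remained 2 in number after quantile normalisation and with an offset in place of the floor. A floor at the 40th percentile left 0 in all 4 comparisons, because a reading at the floor is not counted. With dim members also counted, 5 of 53 passed for day 1 digestion, 10 for day 7 digestion, 8 for the day without digestion and 5 for the day with it (9.43%, 18.9%, 15.1% and 9.43%, against 8.63%, 13.4%, 15.0% and 9.9% of all 1263 probe sets), and 1 (Gabrb2) passed the same way for the day in both states. At 1.5-fold they were 2, 4, 6 and 5 in the same order, with 1 (Gabrd by M35162_at) the same way for the day. At 3-fold they were 1, 1, 1 and 2. With 1 value per gene they were 1, 2, 1 and 2. The values as deposited gave 4 for digestion at day 7 and 2 in each of the others. No member passed the same way in both days for digestion under any of these settings. Of the called differences of single probe sets none turned its sign. Among all 632 analysed probe sets the day split in undigested samples moved from 46 higher and 37 lower to 20 and 58 with the deposited scaling or 29 and 51 under quantile normalisation, and that of digestion at day 7 from 43 and 28 to 52 and 20 in the deposited values. For digestion at day 1 it moved from 13 and 9 to 7 and 12 as deposited, or 11 and 12 under quantile normalisation. No array was replicated, and signal near the floor limits what can be said of the members below the limit for analysis. The additive fit treats the day as a block for digestion and digestion as a block for the day, and called 0 members for either.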
